A study of Saccharomyces cerevisiae with 12 samples.

Results

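The Npr1/Hal5 family is a group of fungal protein kinases, here 10 genes of Saccharomyces cerevisiae, and 2 of them, SAT4 (also called HAL4, YCR008W) and HAL5 (YJL165C), are deleted together in the hal4hal5 mutant. The question was whether the transcripts of the other 8, PTK1 (YKL198C), PTK2 (YJR059W), NPR1 (YNL183C), HRK1 (YOR267C), PRR2 (YDL214C), KKQ8 (YKL168C), NNK1 (YKL171W) and RTK1 (YDL025C), differ between the mutant and its wild type. The members were taken by their open reading frame names, not by their values. Of the 5994 open reading frames in the deposited table, 8 are members: SAT4, HAL5 and 6 of the 8 related kinases. HRK1, which in yeast takes part in the activation of the plasma membrane proton pump by glucose, has no row in the table used here, nor has PRR2, the duplicate-gene partner of NPR1, so neither was analysed.

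Kinases of this family act largely on transport across the yeast plasma membrane. Hal4 and Hal5 keep the potassium transporters Trk1 and Trk2 at the cell surface, Ptk2 and Hrk1 promote the activity of the proton pump Pma1, and Npr1 protects nitrogen permeases from ubiquitin-dependent removal when the TORC1 complex is less active. Potassium uptake is driven by the membrane potential that the pump builds, so the substrates of these kinases are linked.

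The arrays form 3 sets of 4, each array carrying RNA of the hal4hal5 mutant against RNA of its wild type. The sets are BY4741 in YPD at pH 4.5, W303 in YPD at pH 4.5 and W303 in YPD at pH 6.0, where BY4741 and W303 are laboratory strain backgrounds and YPD is a rich glucose medium. All cells were in log phase at 28 °C, and the 4 arrays of each set are biological replicates by the design text. How the deletions were made, whether the W303 sets share a mutant isolate, and whether wild-type RNA was reused between arrays are not given in the sources used here, so p-values measure the spread between these arrays only.

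Every value below is a log2 ratio, mutant over wild type, so 0 is no difference and 1 a doubling in the mutant. It is a difference between strains and not a level, and 1 gene cannot be ranked against another in abundance. The base of the logarithm and the dye in the numerator are both unstated. The values range from -7.15 to 5.55, which led to base 2 being assumed. With natural logarithms the folds would be larger, for example 2.59 in place of 1.93 for PTK2 in W303 at pH 4.5. Cy5 over Cy3 was taken because SAT4 is then lower in the mutant on 9 of 10 arrays and HAL5 on 9 of 11. The opposite reading would turn the sign of every value.

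Arrays held 4418 to 5696 values each, and the number of arrays limits the precision. Agreement differed between the sets. The median gene of each set had an SD between arrays of 0.15 for BY4741, 0.13 for W303 at pH 4.5 and 0.26 for W303 at pH 6.0. Replicate 3 of W303 at pH 6.0 stood apart from the others: it held the fewest values, and its correlation across genes with the other arrays of its set averaged 0.186, against 0.332 to 0.933 for the other 11 arrays. The members' results and the counts over lists at pH 6.0 are therefore given with and without it. The arrays also show that mutant and wild type differed at genes outside the family. HIS3, a histidine biosynthesis gene used as a selection marker, had mean ratios of 0.15, 2.00 and 2.33 in the 3 sets in the order above, and those of ADE2, an adenine biosynthesis gene, were -0.57, -2.30 and -1.11, lower on all 12 arrays. MET17, a sulphur assimilation gene, had 0.13, 1.90 and 0.59. Among other auxotrophic marker genes, LYS2 had -0.45, -0.68 and -0.71, lower on all 12 arrays. URA3 had -0.13, -0.05 and -0.92, and TRP1 had 0.17, 0.38 and -0.13. LEU2, another such marker, read 5.01 on the 1 BY4741 array that measured it, and MF(ALPHA)1, the alpha pheromone gene, had a mean of 3.06 on the 3 arrays of W303 at pH 4.5 that measured it. Their part in the results on the kinases was not tested.

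The related kinases were higher in the W303 mutant at pH 4.5, with PTK2 the furthest from 0. There all 6 related kinases with a row were tested, and all 6 rose, with means from 0.19 for KKQ8 to 0.95 for PTK2. In BY4741 at the same pH, 1 of the 4 tested rose, KKQ8, and none fell. In W303 at pH 6.0 none of the 4 tested passed the test in either direction. A gene was called, as risen or fallen, when limma's p, adjusted for the number of genes tested on that set of arrays, was below 0.05. By that rule 31.4% of genes were called in BY4741 (15.9% higher, 15.4% lower). The shares were 69.2% (36.1% higher, 33.1% lower) for W303 at pH 4.5 and 3.36% (1.92% higher, 1.44% lower) for W303 at pH 6.0. With the spread pooled over all 12 arrays, 1 of the 4 related kinases that could be fitted was called in W303 at pH 4.5, PTK2 (adjusted p = 2.2e-04), and 0 of 4 in BY4741. That fit called 1294 of all 4755 genes tested in BY4741, and its share for W303 at pH 4.5 is not given here. No test of the kinases as a group was made.

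**Figure D1:**
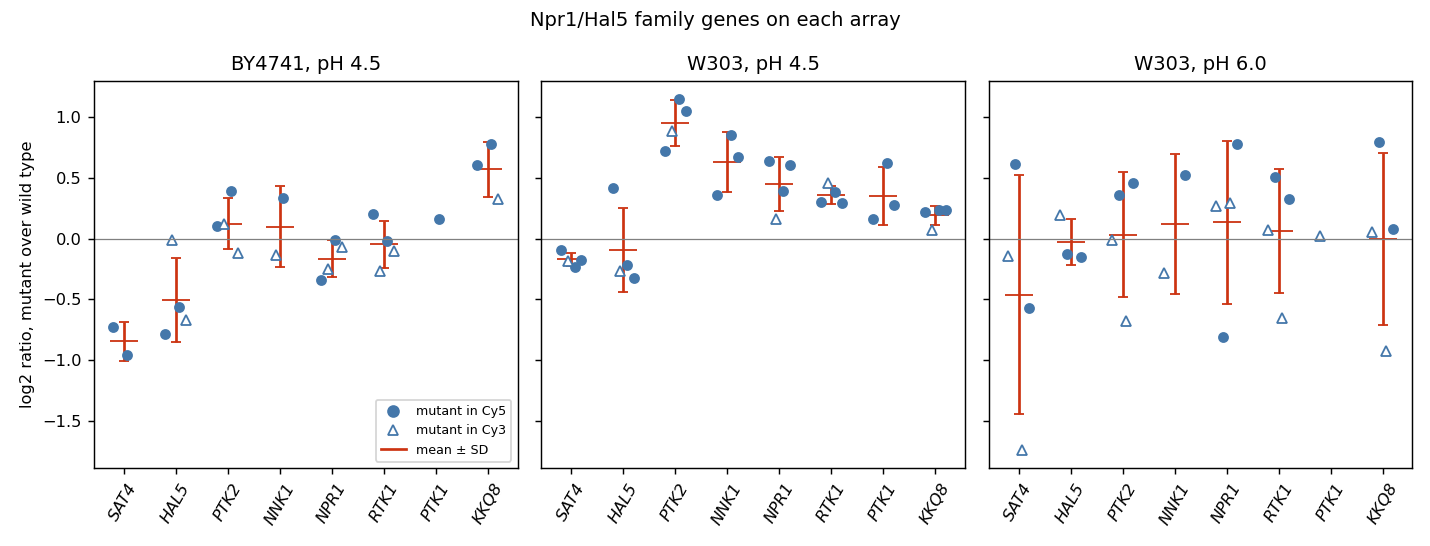
Log2 ratio of mutant over wild type (vertical axis) for the 8 family genes with a row, by array, in the 3 sets. Filled circles are arrays with the mutant in Cy5, open triangles arrays with the mutant in Cy3, and red bars the mean ± SD where at least 2 arrays gave a value. In W303 at pH 4.5 all 22 values of the related kinases lie above 0, and those of PTK2 lie between 0.72 and 1.15.

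The deleted genes had ratios near 0 on many arrays, although the mutant lacks them. SAT4 read -0.73 and -0.96 on replicates 1 and 3 of BY4741. On the W303 arrays at pH 4.5 it read -0.09, -0.18, -0.23 and -0.18, and at pH 6.0 it read -0.15, 0.62, -1.74 and -0.57, in the order of the replicates. HAL5 read -0.78, -0.01, -0.56 and -0.67 in BY4741 and 0.42, -0.27, -0.21 and -0.32 in W303 at pH 4.5. On the 3 arrays of W303 at pH 6.0 that measured it, replicates 1, 2 and 4, HAL5 read 0.19, -0.12 and -0.15. HAL5 was thus higher in the RNA labelled mutant on replicate 1 of both W303 sets, where SAT4 read -0.09 and -0.15. SAT4 was higher on replicate 2 at pH 6.0, where HAL5 read -0.12. On each of those 3 arrays the deleted genes differed in sign, and mutant stands throughout for RNA labelled so. The position of the probes relative to the deletions is unstated. Since the direction of all ratios was set by these genes, their sign is no result. The ratio of PTK2 in W303 at pH 4.5 was further from 0 than that of either deleted gene on any array of the same set.

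PTK2 encodes a kinase that promotes polyamine uptake and activates the proton pump Pma1. It read 0.72, 0.89, 1.15 and 1.05 on replicates 1 to 4 of W303 at pH 4.5, a mean of 0.95 ± 0.19 (SD, n = 4) with a 95% interval of 0.77 to 1.13. That is a 1.93-fold rise with an adjusted p of 1.2e-05 in the limma fit, and 94.8% of the genes tested in the set had a lower mean. The mean was 0.97 on the 3 arrays with the mutant in Cy5, and the 1 array with it in Cy3 read 0.89. In BY4741 PTK2 read 0.11, 0.12, 0.39 and -0.11, a mean of 0.12 ± 0.21 (SD, n = 4) with an interval of -0.09 to 0.34 and an adjusted p of 0.33. At pH 6.0 in W303 it read -0.01, 0.36, -0.68 and 0.46, a mean of 0.03 ± 0.52 (SD, n = 4) with an interval of -0.48 to 0.55 and an adjusted p of 0.96. Every array of W303 at pH 4.5 was thus above every array of both other sets, a separation that was not counted over all genes. The lowest value at pH 6.0 was that of replicate 3, without which the mean was 0.27 with an adjusted p of 0.28.

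PTK1 is the duplicate-gene partner of PTK2 and also bears on polyamine uptake. It was measured on few arrays. Replicates 1, 3 and 4 of W303 at pH 4.5 read 0.16, 0.62 and 0.28, a mean of 0.35 ± 0.24 (SD, n = 3) with an interval of 0.13 to 0.58 and a limma adjusted p of 0.013. Without replicate 3 the mean was 0.22 with an adjusted p of 0.085. All 3 arrays had the mutant in Cy5, so for PTK1 in this set dye and strain cannot be told apart. The single values elsewhere were 0.17 on replicate 3 of BY4741 and 0.02 on replicate 1 of W303 at pH 6.0, and neither set was tested.

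The table holds a further row, YKL199C, an older name that RefSeq now lists under PTK1. It was noticed after the values were seen and is not counted among the members. Its 4 values in W303 at pH 4.5 were 0.51, 0.31, 0.41 and 0.03, a mean of 0.32 ± 0.20 (SD, n = 4) with an adjusted p of 0.0078. This row includes an array with the mutant in Cy3, replicate 2, which read 0.31. In BY4741 the row averaged 0.10 ± 0.29 (SD, n = 4), with an adjusted p of 0.52. At pH 6.0 it read 0.17, 1.06 and 0.86 on replicates 1, 2 and 4, a mean of 0.70 ± 0.46 (SD, n = 3) with an adjusted p of 0.17. Both PTK1 rows thus passed the test in W303 at pH 4.5 at about the same mean.

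NPR1 encodes the kinase that keeps nitrogen permeases such as Gap1 at the surface and is restrained by TORC1. On the arrays of W303 at pH 4.5 it read 0.64, 0.16, 0.40 and 0.61, a mean of 0.45 ± 0.22 (SD, n = 4) with an interval of 0.26 to 0.65, a 1.37-fold rise with a limma adjusted p of 0.0015. The lowest of these, 0.16, was the array with the mutant in Cy3. In BY4741 NPR1 was below 0 on all 4 arrays, at -0.34, -0.25, -0.01 and -0.07, but the mean of -0.17 ± 0.15 (SD, n = 4) did not pass the test, with an adjusted p of 0.15. The values of these sets did not overlap, but how many of all genes separate in this way was not counted. At pH 6.0 NPR1 read 0.27, -0.81, 0.29 and 0.78, the widest spread of the set after that of KKQ8 among the related kinases. The mean there was 0.13 ± 0.67 (SD, n = 4) with an adjusted p of 0.82, and 0.08 without replicate 3.

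KKQ8, the duplicate-gene partner of HAL5 and a kinase of unassigned function, was the related kinase that rose in BY4741. It read 0.60, 0.78 and 0.33 on replicates 1, 3 and 4 there, a mean of 0.57 ± 0.23 (SD, n = 3) with an interval of 0.31 to 0.83. That is a 1.48-fold rise with a limma adjusted p of 0.013, at rank 271 of the 5461 genes tested, counted from the highest mean. The call was lost without replicate 1 (0.55, adjusted p = 0.051) or replicate 3 (0.47, adjusted p = 0.078). KKQ8 read 0.22, 0.07, 0.24 and 0.24 in W303 at pH 4.5, a mean of 0.19 ± 0.080 (SD, n = 4), the smallest rise of the 6, with an adjusted p of 0.020. That call was lost without replicate 3 or 4 (0.18 in both, adjusted p = 0.077 and 0.10) and with a term for the dye (0.15, adjusted p = 0.054). At pH 6.0 it read 0.05, 0.80, -0.92 and 0.08, a mean of 0.00 ± 0.71 (SD, n = 4) with an interval of -0.67 to 0.67 and a mean of 0.31 without replicate 3 (adjusted p = 0.32).

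NNK1, a kinase tied to nitrogen metabolism and TORC1, rose in W303 at pH 4.5. Replicates 1, 3 and 4 read 0.36, 0.85 and 0.67, a mean of 0.63 ± 0.25 (SD, n = 3) with an interval of 0.40 to 0.86, a 1.55-fold rise with a limma adjusted p of 8.1e-04. As for PTK1, all 3 arrays had the mutant in Cy5, so dye and strain cannot be told apart. In the other sets NNK1 had 2 values each, of opposite sign, and was not tested. They were -0.14 and 0.34 in BY4741, and -0.28 and 0.53 in W303 at pH 6.0, and in both sets the higher value was on the array with the mutant in Cy5.

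RTK1, a kinase of unassigned function found with ribosome biogenesis factors, had the narrowest spread of the 6 in W303 at pH 4.5. It read 0.30, 0.46, 0.38 and 0.30, a mean of 0.36 ± 0.077 (SD, n = 4) with an interval of 0.22 to 0.50, a 1.28-fold rise with a limma adjusted p of 7.4e-04. The mutant was in Cy3 on the array with the highest value. In BY4741 RTK1 read 0.20, -0.26, -0.01 and -0.10, and the mean of -0.05 ± 0.19 (SD, n = 4) had an adjusted p of 0.72. At pH 6.0 it read 0.07, 0.51, -0.65 and 0.32, a mean of 0.06 ± 0.51 (SD, n = 4) with an adjusted p of 0.91, and 0.30 (adjusted p = 0.22) without replicate 3. The values at pH 4.5 in W303 lay above all those in BY4741 and within the range of those at pH 6.0. Here too the share of all genes that separate by strain was not counted.

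The dye that carried the mutant moved with the ratios at pH 6.0. There PTK2, RTK1 and KKQ8 averaged 0.41, 0.42 and 0.44 on the arrays with the mutant in Cy5 and -0.35, -0.29 and -0.44 on those with it in Cy3, while NPR1 averaged -0.01 and 0.28. Replicate 3 is one of the arrays with the mutant in Cy3. The other Cy3 array of that set, replicate 1, read between -0.01 and 0.27 for these 4 genes, below every Cy5 array for PTK2, RTK1 and KKQ8. None of the 4 genes changed sign with the dye in W303 at pH 4.5, where a single array had the mutant in Cy3. With a term for the dye in the fit, 0 of the 4 were called at pH 6.0 and all but KKQ8 were called in W303 at pH 4.5.

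**Figure D2:**
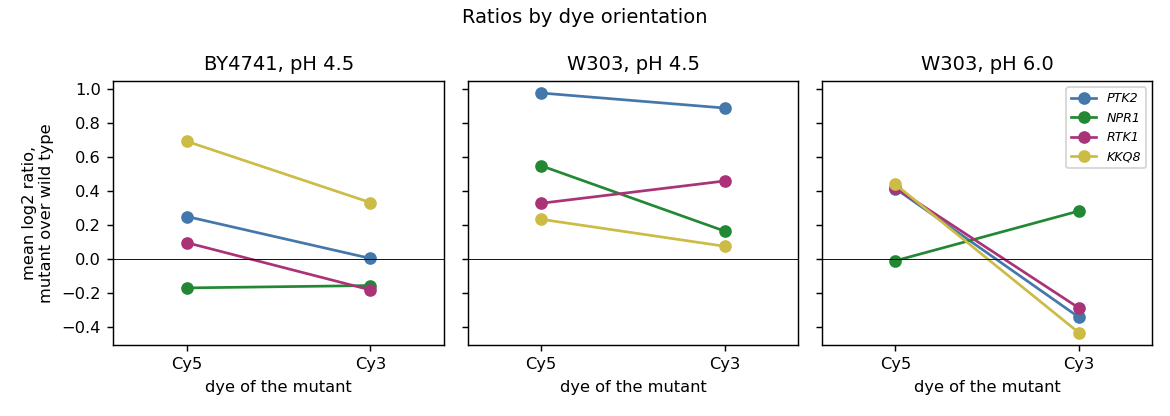
Mean log2 ratio of mutant over wild type (vertical axis) for PTK2, NPR1, RTK1 and KKQ8 on arrays with the mutant in Cy5 and in Cy3, in the 3 sets. In W303 at pH 6.0 the lines of PTK2, RTK1 and KKQ8 cross 0, from 0.41 to 0.44 in Cy5 to -0.29 to -0.44 in Cy3, and in W303 at pH 4.5 all points lie above 0.

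Over the related kinases as a group, the sets differed in how many values lay above 0. It was 22 of 22 in W303 at pH 4.5, 9 of 18 in BY4741 and 13 of 19 in W303 at pH 6.0. The median of the tested related kinases was 0.40, 0.04 and 0.05 in that order, against 0.03, -0.01 and 0.01 over all genes tested. The values above 0 come from genes that share arrays and are not independent, so their counts are a description. Such counts were not made over all genes. None of the 4 tested at pH 6.0 passed even an unadjusted p of 0.05 (0 of 4), and one-class SAM, the method that the design text names, also called 0 of 4. Without replicate 3 at pH 6.0, 12 of 15 values lay above 0 and 0 of 5 related kinases were called, with a median of 0.27 against 0.01 over all genes. Of all 5267 genes tested without it, 194 rose and 125 fell.

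Other yeast protein kinases, from a list of 106 with 100 in the table, are given beside the family. Of 94 tested in W303 at pH 4.5, 45 rose and 18 fell, with a median of 0.17. In BY4741, 7 of 91 rose and 15 fell, with a median of -0.01, and at pH 6.0 none of 83 was called, with a median of 0.04. Among those furthest from 0 in W303 at pH 4.5 were KIN82 (1.41), an activator of lipid flippases, TDA1 (1.21) and SSK22 (1.17), an osmosensing MAP kinase kinase kinase. In BY4741 the called genes furthest from 0 were SCH9 (-0.65), a TORC1 target, IKS1 (0.58), ELM1 (0.46), which acts on bud morphology, and the meiotic kinase gene IME2 (0.46). CMK2 had a mean of 0.82 there and was not called (limma adjusted p = 0.11). PTK2, at 0.95 in W303 at pH 4.5, had a lower mean than KIN82, TDA1 and SSK22 and stood at rank 288 of the 5501 genes tested.

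**Figure D3:**
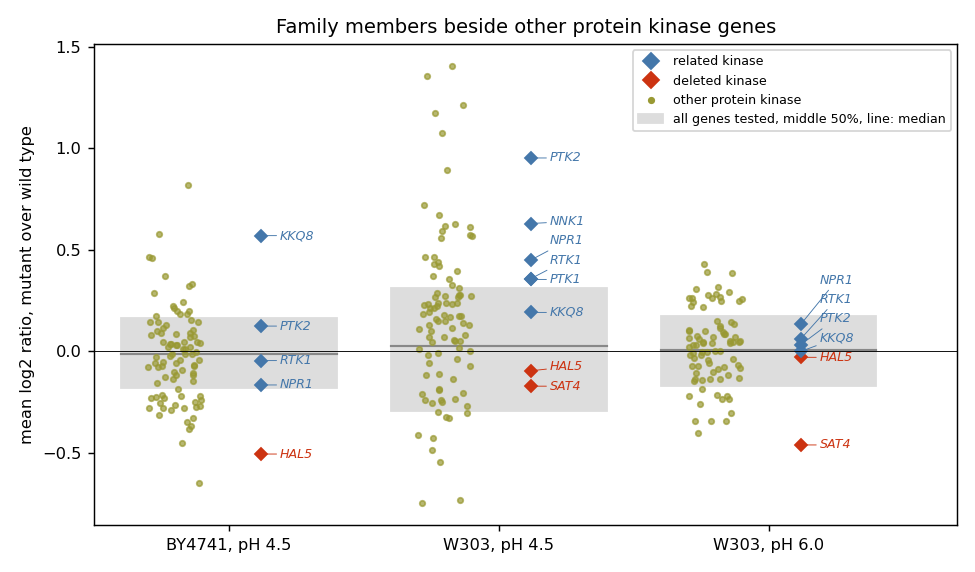
Mean log2 ratio of mutant over wild type (vertical axis) for each tested gene in the 3 sets. Diamonds are family members, small circles the other protein kinase genes, and the grey box the middle 50% of all genes tested with its median as a line. In W303 at pH 4.5 the related kinases lie between 0.19 and 0.95, and 5 of the 6 lie above the grey box.

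The first comparison between sets asked whether the response of the kinases depended on the strain background at pH 4.5. Only PTK2 passed the test of the difference, 1 of 4 related kinases tested, and it was higher in W303. Of all genes tested 20.4% were called (10.9% higher and 9.55% lower in W303). For PTK2 the difference, W303 minus BY4741, was 0.83 ± 0.22 (SE) with an interval of 0.36 to 1.30 and a limma adjusted p of 0.020. The call was lost without replicate 3 or 4 of W303 (0.76 and 0.80, adjusted p = 0.062 and 0.061) or replicate 4 of BY4741 (0.75, adjusted p = 0.065), and when arrays were scaled to equal spread (0.64, adjusted p = 0.069). The differences of the others were 0.62 ± 0.26 (SE) for NPR1, with an interval of 0.05 to 1.18 and an adjusted p of 0.11, 0.40 ± 0.20 (SE) for RTK1, with -0.04 to 0.84 and 0.18, and -0.38 ± 0.30 (SE) for KKQ8, with -1.03 to 0.27 and 0.39. KKQ8 was the 1 tested kinase with a difference below 0, by a value that did not pass.

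The spread behind those values is shared with the noisier set at pH 6.0. In a fit of the 8 arrays at pH 4.5 alone, all 4 differences passed, with limma adjusted p-values of 0.0011 for PTK2, 0.0041 for NPR1, 0.013 for RTK1 and 0.029 for KKQ8, while 2012 genes were called in place of 971. The direction of each difference was the same in both fits, since the means were. PTK1 and NNK1 had too few values in BY4741 for either fit.

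The second comparison asked whether the response in W303 depended on the pH of the medium. Again 1 of the 4 related kinases passed, PTK2, whose ratio was lower at pH 6.0, with 24% of all genes called (10.7% higher and 13.2% lower at pH 6.0). The difference, pH 6.0 minus pH 4.5, was -0.92 ± 0.22 (SE) with an interval of -1.39 to -0.45 and a limma adjusted p of 0.0091. It was -0.68 without replicate 3 of the pH 6.0 set, with an adjusted p of 0.0049. It was also called without any other single array, with adjusted p-values up to 0.031, and under all 8 alternative settings, up to 0.042. For NPR1 the difference was -0.32 with an interval of -0.88 to 0.25, for RTK1 -0.30 with -0.74 to 0.14, and for KKQ8 -0.19 with -0.79 to 0.41. These did not pass (adjusted p = 0.40, 0.31 and 0.65), and the intervals include differences as large as the rises at pH 4.5 as well as 0. The comparisons by strain and by pH share the 4 arrays of W303 at pH 4.5.

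**Figure D4:**
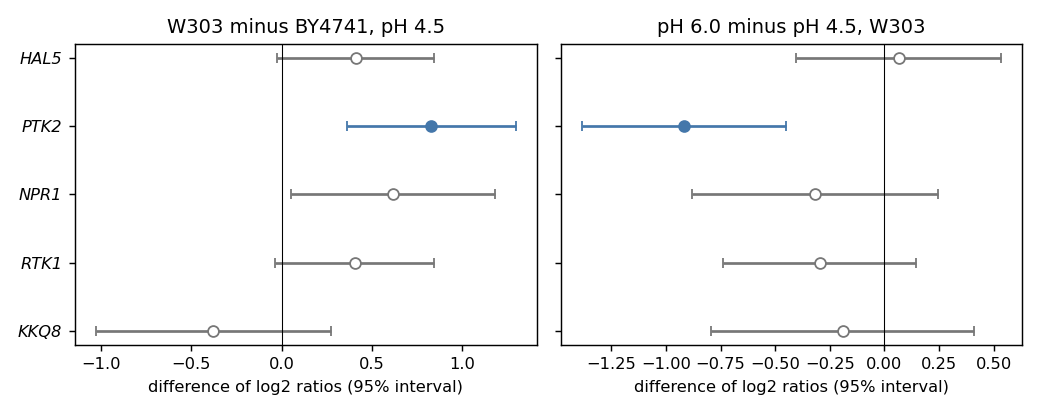
Difference of mean log2 ratios with its 95% interval (horizontal axis) for the 5 family genes tested, by strain at pH 4.5 on the left and by pH in W303 on the right. Filled points passed the test. PTK2 is the only filled point in each panel, at 0.83 and -0.92.

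Genes of the transport systems around these kinases were read from lists chosen with earlier results of these data known, which hold known substrates and other genes of the same function. Potassium and proton transport genes showed no common direction: in BY4741, 1 of 11 tested rose and 5 fell, in W303 at pH 4.5, 5 of 12 rose and 5 fell, and at pH 6.0 none of 11 was called, with medians of -0.21, -0.05 and -0.02. In BY4741 the genes furthest from 0 were QDR2 (-0.84), a multidrug exporter that also bears on potassium, and TRK2 (-0.77), the minor potassium transporter on which Hal4 and Hal5 act, followed by PRM6 (-0.39) and NHX1 (-0.38), an endosomal cation exchanger. At pH 4.5 in W303 they were VHC1 (0.68), a vacuolar cation and chloride cotransporter, ENA2 (-0.65), a sodium pump, KCH1 (-0.41) and QDR2 (-0.40). TRK2 was called in neither W303 set, with -0.10 (n = 3) at pH 4.5 and -0.24 at pH 6.0 (limma adjusted p = 0.28 and 0.55). Its difference by strain, 0.67, did not pass (adjusted p = 0.053). The main substrates are named here for their role and not by the naming rule. TRK1 had means of 0.22, 0.23 and 0.28 in the 3 sets, with a call in W303 at pH 4.5 alone (adjusted p = 0.014), and the pump gene PMA1 had 0.31, 0.34 and 0.56, with calls at pH 4.5 in both strains (adjusted p = 0.049 and 0.0054). Neither differed by strain or by pH beyond the test, with adjusted p-values of 0.94 and 0.85 for TRK1 and 0.93 and 0.40 for PMA1.

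Regulators of the Trk system and of salt tolerance formed the next list. Of 13 tested in W303 at pH 4.5, 10 rose and 2 fell, with a median of 0.29. The largest rises were those of VHS3 (0.85), an inhibitory subunit of the Ppz phosphatases, PPZ2 (0.67), one of those phosphatases, CMP2 (0.59), a calcineurin catalytic subunit, and HAL1 (0.46), a halotolerance gene. In BY4741, 2 of 13 rose, HAL1 (0.37) and PPZ1 (0.25), and none fell, with a median of -0.06. At pH 6.0 none of 13 was called, with a median of 0.22.

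Nutrient permeases, a list of mostly amino acid and other nitrogen permeases that also holds the uracil permease gene FUR4 and the hexose transporter gene HXT1, moved in both directions. In BY4741, 1 of 17 rose and 7 fell, in W303 at pH 4.5, 8 of 17 rose and 6 fell, and at pH 6.0, 1 of 15 fell, with medians of -0.12, -0.02 and 0.13. BAP2, a branched-chain amino acid permease, fell in all 3 sets, with means of -1.92, -2.39 and -1.36, and AGP1, a broad amino acid permease, rose at pH 4.5 in both strains (0.97 and 1.07). TAT1, a tyrosine permease, fell at pH 4.5 in both (-0.79 and -1.22), and so did TAT2, a tryptophan permease (-0.61 and -0.76). GAP1, which encodes a general permease for amino acids, had means of -0.52 in BY4741 (adjusted p = 0.015), 1.43 in W303 at pH 4.5 (adjusted p = 3.4e-07) and -0.37 at pH 6.0 (adjusted p = 0.17). Its differences by strain, 1.95, and by pH, -1.80, both passed (adjusted p = 7.4e-06 and 1.2e-05).

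TORC1 components and the ubiquitin adaptors that remove permeases from the surface made up the last list. In BY4741 none of 23 tested rose and 4 fell, BUL2 (-0.37), LDB19 (-0.28), TOR2 (-0.28) and BUL1 (-0.25), the first, second and last of which encode such adaptors. Of 23 tested in W303 at pH 4.5, 9 rose and 1 fell, with a median of 0.14 against -0.04 in BY4741. The arrestin-like adaptor genes CSR2 (0.58), ART10 (0.48) and ROG3 (0.44) rose and ALY2 (-0.47), of the same class, fell. At pH 6.0 none of 19 was called.

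Without replicate 3 at pH 6.0 the lists gave like counts. None was called of 12 potassium and proton transport genes, 13 regulators of the Trk system, 21 TORC1 and adaptor genes and 90 other protein kinases, with medians of 0.03, 0.10, 0.05 and 0.04, and 1 of 18 nutrient permeases fell, BAP2, with a median of 0.25 over that list. The means without it were 0.35 for TRK1, 0.60 for PMA1, -1.43 for BAP2 and -0.27 for GAP1, and 2.18 for HIS3, -1.11 for ADE2 and 0.65 for MET17. MET17, URA3 (-1.22) and LYS2 (-0.77) were called without it but not with it (limma adjusted p without it = 0.035, 0.0053 and 0.032). TRP1 (-0.47) was called in neither fit.

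Some genes next to the deleted ones were read because a deletion or its marker can lie close to them. Beside HAL5, QCR8, a respiratory chain subunit, had means of 1.48, 0.93 and 0.87 (the last 0.79 without replicate 3) and rose in BY4741 and in W303 at pH 4.5 (adjusted p = 2.2e-04 and 2.1e-06). Beside SAT4, RVS161, an endocytosis gene, had 0.22, 0.82 and 0.60 (the last 0.34 without replicate 3) and rose in both pH 4.5 sets (adjusted p = 0.043 and 5.2e-06), and DFP3 had 0.32, 0.50 and -0.11 and rose in W303 at pH 4.5 (adjusted p = 4.3e-04).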

How the data were processed

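The deposited table gives 1 log2 ratio per open reading frame and array for 12 two-colour arrays. Per the labels, 30 µg of total RNA from cells at an absorbance of 1.0 was copied from a poly-dT primer with aminoallyl nucleotides and coupled to Cy3 or Cy5. The authors' scanner, normalisation and filters are not given in the sources used here, and signal over background is unknown. The mutant was in Cy5 on 7 arrays, and values of the other 5 were multiplied by -1. As deposited, 10 of 11 pairs of opposite orientation within a set correlated negatively (-0.914 to 0.0906), and 7 of 7 pairs of equal orientation positively.

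Each set was fitted with limma 3.58.1 in R 4.3.3 (1 mean per gene, empirical Bayes, two-sided) over all genes with at most 1 missing value of 4, in place of one-class SAM. Differences between sets were contrasts in 1 fit of all 12 arrays. P-values were adjusted by Benjamini-Hochberg over all genes tested, and the threshold was 0.05. The fits were tested on simulated data. Fits of the differences had to pass there only with equal spread in the sets. With unequal spread, as here, the fit of all 12 arrays is known to be miscalibrated. Errors are SDs between arrays, or limma's SE for differences.

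RefSeq locus tags (assembly R64, used for names and gene order) matched 5457 of 5994 rows. Members and lists were chosen with earlier results of these data known. Named genes were the members, the neighbours of SAT4 and HAL5, auxotrophic markers, and up to 4 called genes per list and set, those furthest from 0 with 1 sign on every array; genes like a member across 12 arrays were to be named, but no member qualified. A gene that the rule takes is not reported here. No sequences are shown.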

Additional observations from a re-analysis of the deposited data

Results flagged for a closer look

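PTK2 differed between the sets in the test of the difference itself. By strain at pH 4.5 the difference was 0.83 (limma adjusted p = 0.020), with every W303 array above every BY4741 array. By pH in W303 it was -0.92 (adjusted p = 0.0091), with every array at pH 6.0 below every array at pH 4.5. Such separations were not counted over all genes.

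NPR1 was higher in the mutant on all 4 arrays of W303 at pH 4.5 (mean 0.45) and lower on all 4 of BY4741 at pH 4.5 (mean -0.17). How many of all genes do so was not counted. The limma test of that difference gave 0.62, with an adjusted p of 0.11 in the fit of all 12 arrays and 0.0041 in the fit of the 8 arrays at pH 4.5.

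In 2 of the 17 groups of 4 values examined, 1 array lay far from the other 3. HAL5 read 0.42 on replicate 1 of W303 at pH 4.5 against -0.32 to -0.21 on the others, and KKQ8 read 0.073 on replicate 2 of the same set against 0.22 to 0.24. Chance marks about 1 group in 20. HAL5 had a mean of -0.10 in that set with a limma adjusted p of 0.48, and of -0.27 without replicate 1. The second mean leaves out the value that stood apart. HAL5 also helped to set the direction of the ratios, so its fall is no result.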

How the results depend on the processing

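Among the results on the related kinases, the rises of PTK2 and NNK1 in W303 at pH 4.5 and the fall of PTK2 by pH were called under every alternative that gave a value. The 1 related kinase called in BY4741, KKQ8, had 3 values there, so it left the test when values on all 4 arrays were required. With the set mean taken from 1 limma fit of all 12 arrays the count became 0 (KKQ8 0.57, adjusted p = 0.083). The 6 in W303 at pH 4.5 became 3 with a dye term, where PTK1 and NNK1 could not be fitted, and 1 in the fit of all 12 arrays, which pools the wider spread at pH 6.0 and lacks PTK1 and NNK1 (NPR1 0.45, adjusted p = 0.054, RTK1 0.36, adjusted p = 0.0501, KKQ8 0.19, adjusted p = 0.43). Over all genes, the dye term called 3568 of 5380 in W303 at pH 4.5. The 163 calls at pH 6.0 became 380 with one-class SAM and 1095 in the fit of all 12 arrays. For the difference by strain, a fit of its 8 arrays called 4 members and 2012 genes, of a number tested that is not given here. Scaling arrays to equal spread called 0 members and 426 genes. For the difference by pH, scaling called 583 genes. The causes of these shifts with scaling and SAM were not tested. HAL5 at pH 6.0 turned from -0.03 to 0.03 with a dye term. YKL199C at pH 6.0 was called in the fit of all 12 arrays (adjusted p = 0.010).

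Leaving out 1 array at a time gave 0 to 1 related kinases called in BY4741, 4 to 6 in W303 at pH 4.5, 0 to 0 at pH 6.0, 0 to 1 for the difference by strain and 1 to 1 by pH. Over all genes it gave 754 to 1389, 3243 to 3780, 1 to 319, 441 to 753 and 725 to 1550 calls in the same order. Signs turned for uncalled means: RTK1 in BY4741 (-0.13 to 0.028), at pH 6.0 KKQ8 (-0.26 to 0.31), HAL5 (-0.14 to 0.034), PTK2 (-0.11 to 0.27), RTK1 (-0.086 to 0.30) and NPR1 (-0.082 to 0.45), and by pH HAL5 (-0.044 to 0.24) and KKQ8 (-0.46 to 0.12).

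Arrays with the same replicate number did not all deviate together (correlations of -0.13 to 0.13 by strain and -0.17 to 0.21 by pH), and not every array correlated best with its own number, so the numbers were not taken as pairs. With the replicate number as a block, PTK2 gave 0.83 (adjusted p = 0.047) and -0.92 (adjusted p = 0.026), the calls over all genes went from 971 to 710 and from 1139 to 951, and no other call on a related kinase changed. The limits are 4 arrays a set, unknown signal over background, an inferred log base and numerator, and a dye orientation of 3 to 1 in W303 at pH 4.5.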

Other observations

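The mating-type genes, which mark haploid a and alpha cells, were examined in the same fits. Of the 7 a-specific genes, 2 rose and 3 fell in BY4741, and 4 rose and 3 fell in W303 at pH 4.5. The receptor gene STE2, the pheromone exporter gene STE6 and the protease gene BAR1 were lower in the mutant on all 12 arrays, with BAR1 at -0.42, -0.66 and -1.45 in the 3 sets, the last of these -1.21 without replicate 3. Going the other way, MFA1 (1.12 and 0.88) and MFA2 (0.40 and 0.93) rose in BY4741 and in W303 at pH 4.5. AGA2 (0.99) and ASG7 (1.12) rose in W303 at pH 4.5. At pH 6.0 AGA2 (-0.575, n = 3) and MFA2 (-0.03, and 0.18 without replicate 3) were not called. There ASG7 averaged -0.43 on 2 arrays and MFA1 read -0.22 on 1, too few to test. The differences by pH were -1.57 for AGA2 and -0.96 for MFA2, and both passed (limma adjusted p = 6.9e-04 and 0.020). Of the alpha-specific genes, SAG1 rose in BY4741 (0.42). In W303 at pH 4.5 SAG1 fell (-0.33), MF(ALPHA)1 rose (3.06) and MF(ALPHA)2 was not called (-0.16). At pH 6.0 SAG1 was not called (-0.15), and MF(ALPHA)1 read 2.71 on the 1 array that measured it. STE3 read 2.12 on 1 array of BY4741 and had no value in W303. The ratios give no levels, and what part these differences have in the results on the kinases was not tested.

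Some genes next to the related kinases were read by position, outside the naming rule and after their values were seen. Not all neighbours are given. KKQ8 and NNK1 lie on either side of MRPL38, a mitochondrial ribosomal protein gene with means of 0.49, 0.61 and 0.25. MRP49, on the other side of KKQ8, had 0.44, 0.72 and -0.30. Next to RTK1, MRX9 had 0.65, 1.26 and 0.54, and next to NPR1, IPI3 had -0.26, -0.75 and 0.18. Next to PTK2, CBF1, a centromere-binding factor gene, had -0.06, -0.03 and 0.00, and APS2, an adaptor complex gene, had 0.31, 0.23 and 0.02. Beside PRR2, which has no row, GDH2, an NAD-dependent glutamate dehydrogenase gene, had 0.55, 1.00 and 0.06. On the other side of PRR2, NOP6 had -0.18, -0.59 and -0.02.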
